A study of Mus musculus with 10 samples.

Results

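The genes described here are 32 established targets and regulators of the transcription factor NRF2, glutathione transferases left out. They were taken by gene symbol from the probe sets of an Affymetrix array, and for each gene the probe set of highest mean signal over all 10 arrays stood for it. The array covered 18193 genes through probe sets assigned to 1 gene, and 29 of the 32 members were among them. The probe sets of Prdx1, a peroxiredoxin, and of Ftl1, a ferritin light chain, listed several genes and were not used, and Htatip2 had no entry in the probe table. After a filter on low signal, 11021 genes were tested, 28 of them members. Slc7a11 did not pass the filter, and Gpx2 passed only through its signal in the nodule.

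Liver RNA came from mice of strain 129/B6. At 11 weeks there were 2 wild-type pools and 2 Gnmt knockout pools, 1 female and 1 male of each genotype, every pool holding RNA of 3 mice in equal parts. Gnmt encodes glycine N-methyltransferase, which uses S-adenosylmethionine to methylate glycine in the liver. The remaining 6 arrays were all of aged Gnmt knockout mice: dysplastic nodule tissue and the liver adjacent to it from a female of 21 months, and 2 liver tumours (hepatocellular carcinoma, HCC) with adjacent liver, from a male of 18 months and a female of 14 months. No aged wild-type liver was analysed. Lesion and adjacent liver that shared sex and age were treated as a pair, an inference, since the labels give no mouse numbers and do not say how many nodules or mice a lesion array holds. Nothing in the labels says whether replicate arrays came from separate litters or cultures, so p-values measure the spread between these arrays only.

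NRF2, encoded by Nfe2l2, is held in the cytoplasm by KEAP1, which hands it to the CUL3 ubiquitin ligase for degradation. Oxidants and electrophiles modify cysteines of KEAP1, NRF2 then escapes degradation, pairs with a small MAF protein in the nucleus and binds antioxidant response elements near its targets. In liver those targets make glutathione, reduce peroxides, quinones and carbonyls, handle haem and iron, and conjugate and export foreign compounds.

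The core of the antioxidant response element was searched for as TGACNNNGC, on both strands, in the 250 bases before each annotated transcription start (RefSeq, GRCm38.p6). At least 1 start with a match was found for 9 of the 27 members with a promoter entry, 33.3%, against 11.5% of all 27025 genes with an entry. By promoter, the counts were 10 of 33 member promoters and 10.2% of 32851. Those 9 were Nfe2l2, Gclm, Txnrd1, Prdx1, Htatip2, Pir, Ugdh, Abcc2 and Abcc4. A match describes these letters only and is not shown to be a binding site. No promoter entry was held for Gclc, Gsr, Hmox1, Abcc3 and Slc48a1. Other members at least 2-fold higher in the nodule had an entry but no match. They were Cbr3, Gpx2, Nqo1, Slc7a11, Srxn1, Mgst3, Ptgr1, Ephx1, Aox1, Ces2g and Blvrb. Abcc4 also had a match before another start, and Txnrd1 had other starts without a match, and those windows are not printed. The windows of 5 genes are printed because their genes were at least 2-fold higher in the nodule, as given further on: Gclm at chr3:122245307-122245556 (plus strand), Txnrd1 at chr10:82858956-82859205 (plus), Ugdh at chr5:65435843-65436092 (minus), Abcc2 at chr19:43782058-43782307 (plus) and Abcc4 at chr14:118706220-118706469 (minus). Each reads 5′ to 3′ toward the start, with the match in capitals, and Ugdh holds 2.
Gclm: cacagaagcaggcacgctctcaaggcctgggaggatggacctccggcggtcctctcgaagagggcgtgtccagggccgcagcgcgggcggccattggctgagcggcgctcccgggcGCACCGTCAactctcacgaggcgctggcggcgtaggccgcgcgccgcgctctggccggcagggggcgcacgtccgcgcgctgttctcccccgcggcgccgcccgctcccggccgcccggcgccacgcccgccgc
Txnrd1: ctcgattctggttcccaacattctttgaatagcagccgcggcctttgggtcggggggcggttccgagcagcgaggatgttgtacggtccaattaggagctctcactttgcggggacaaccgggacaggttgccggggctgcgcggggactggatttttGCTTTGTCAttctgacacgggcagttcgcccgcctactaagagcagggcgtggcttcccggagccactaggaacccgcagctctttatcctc
Ugdh: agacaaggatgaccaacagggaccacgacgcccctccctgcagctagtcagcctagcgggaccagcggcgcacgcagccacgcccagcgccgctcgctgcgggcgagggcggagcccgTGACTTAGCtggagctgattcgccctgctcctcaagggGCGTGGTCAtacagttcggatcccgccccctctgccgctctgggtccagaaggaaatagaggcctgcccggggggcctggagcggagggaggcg
Abcc2: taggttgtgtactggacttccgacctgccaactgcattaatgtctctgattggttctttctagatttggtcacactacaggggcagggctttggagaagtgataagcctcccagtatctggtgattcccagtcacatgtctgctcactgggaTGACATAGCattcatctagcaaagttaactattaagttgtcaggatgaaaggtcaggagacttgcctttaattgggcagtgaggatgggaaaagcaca
Abcc4: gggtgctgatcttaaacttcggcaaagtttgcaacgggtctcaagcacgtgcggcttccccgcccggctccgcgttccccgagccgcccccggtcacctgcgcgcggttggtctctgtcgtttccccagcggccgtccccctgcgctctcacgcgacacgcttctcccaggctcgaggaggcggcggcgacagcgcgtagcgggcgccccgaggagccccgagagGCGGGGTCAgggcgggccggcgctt

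The deletion of Gnmt was visible in every array: the Gnmt signal was 59473 and 52139.9 in the wild-type pools, 190.0 and 245 in the knockout pools and 11.7 to 329 in the aged arrays. Signals are in the arbitrary units of the array software, scaled so that each array had the same trimmed mean, and they rank samples for 1 probe set but not 1 gene against another. The arrays carry no read depth, and their small number limits the precision. The summed signal of 9 hepatocyte markers lay between 346381 and 544950 on all 10 arrays. The ratio of the bioC to the bioB control signal was 3.90 to 5.09 on the young arrays and 1.45 to 1.84 on the aged ones, so that age, pooling and this difference in hybridisation controls cannot be told apart wherever young and aged arrays are set side by side. In bulk tissue, fewer cells of a type and less RNA per cell cannot be told apart.

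The nodule was the highest array in most members, by margins over the next array from 1.065-fold for Txn1 to 23.1-fold for Abcc4. Of the 29 members with a probe set, 21 were at least 2-fold higher in the nodule than beside it, against 10.7% of all 18193 genes, and none was 2-fold lower, against 9.21%. The nodule was the highest of the 10 arrays for 23 of the 29, against 7.62% of all genes, and the lowest for none. Among the 28 members past the filter, 20 were at least 2-fold higher, where 7.84% of the 11021 genes tested were, and none was 2-fold lower (3.87%). Without Gpx2, 19 of 27 were. The nodule was highest for 22 of the 28 (8.93% of genes tested) and lowest for none (8.3%), and for 14 it was at least 2-fold above every young pool (2.99%). Without Gpx2 it was highest for 21 of 27. The nodule difference was above 0 for 27 of 28 (52.1% of all genes), Nfe2l2 being the exception, and the median member difference was 1.20 log2 units beside 0.02 over all genes tested. At 4-fold the members were 7 (1.58% of all genes), namely Cbr3, Gpx2, Abcc4, Gclc, Hmox1, Nqo1 and Gsr, and at 8-fold the first 5 of these (0.426%). Gpx2, which passed the filter only through the nodule array, is counted in the 14, the 27, the 7 and the 5. There is 1 nodule pair, so these are values with no test, and log2 differences are on the scale of log2 of signal plus 16.8, which understates the change of dim genes.

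**Figure D1:**
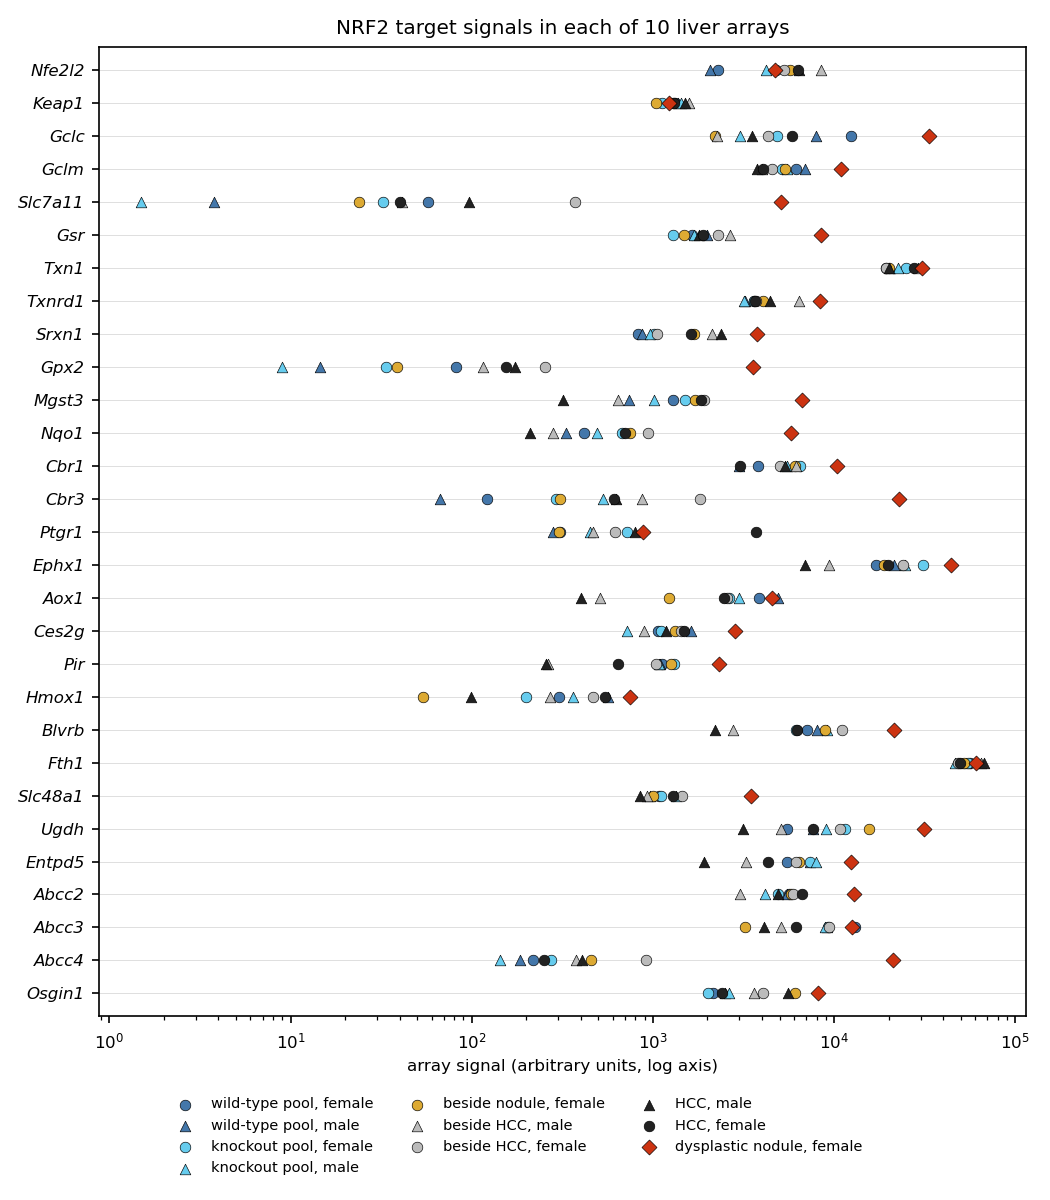
Signal (arbitrary units, log axis) of the 29 members with a probe set in each of the 10 arrays, 1 point per array, circles for females and triangles for males. The nodule (red diamonds) is the rightmost point in 23 rows; Ptgr1 is highest in the female HCC and Nfe2l2 lowest in the wild-type pools.

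The regulators themselves did not follow that pattern. Nfe2l2 signal was 4698 in the nodule and 5700.3 beside it, 6432 and 8487 in the male HCC and beside it, and 6284 and 5298 in the female HCC and beside it. Nfe2l2 read 2286 and 2053 in the female and male wild-type pools and 4769 and 4234 in the female and male knockout pools. All knockout arrays were above both wild-type pools, and the nodule was the seventh highest array. For the young pools alone, 22% of all genes had both knockout pools above both wild-type pools. The nodule minus adjacent difference of Nfe2l2 was -0.28 log2 units. Keap1 signals ran from 1043 to 1587 over the 10 arrays, with the nodule, at 1223, inside that range and 0.23 log2 units above its adjacent liver.

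Among the genes of glutathione synthesis and cystine uptake, Gclc encodes the catalytic subunit of glutamate-cysteine ligase, which sets the rate of glutathione synthesis. Its signal was 33594 in the nodule and 2214 beside it, 3504 and 2264 in the male HCC and beside it, and 5843 and 4301 in the female HCC and beside it. Gclc in young liver read 12382 and 7982 in the female and male wild-type pools and 4853 and 3033 in the female and male knockout pools. The nodule was the highest array by 2.71-fold over the next, which was the wild-type female pool, and both HCCs were above their adjacent livers but below both wild-type pools. In log2 units the nodule difference of Gclc was 3.91, rank 19 among all 11021 genes. It exceeded the mean HCC difference by 3.38 ± 0.45 (SE), which missed the threshold (limma, adjusted p = 0.0722). Gclc passed with averaged probe sets (0.0367) and without _x_at and _s_at probe sets (0.0470, with the estimate unchanged). It did not pass with quantile normalization (0.0882), 75th percentile centring (0.145), no intensity trend (0.446) or a model over all 10 arrays (0.112). The second Gclc probe set gave 3.75 in the nodule pair.

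Gclm, the modifier subunit of the same ligase, read 10939.5 in the nodule and 5353 beside it, 3768 and 4015 in the male HCC and beside it, and 4061 and 4539.5 in the female HCC and beside it. Gclm signals in young liver were 6193 and 6895 in the female and male wild-type pools and 5178 and 5493 in the female and male knockout pools. The nodule came first, the young pools lay close together and both HCCs fell among the lowest arrays. Its nodule difference was 1.03 log2 units. Gsr, glutathione reductase, which returns oxidised glutathione to its reduced form, read 8502 in the nodule and 1483 beside it, 1802 and 2674 in the male HCC and beside it, and 1885 and 2299 in the female HCC and beside it. Gsr in young liver was 1635 and 1989.7 in the female and male wild-type pools and 1295 and 1676 in the female and male knockout pools. The nodule exceeded every other array by 3.18-fold or more, and both HCCs were below their adjacent livers. The Gsr difference was 2.51 log2 units in the nodule and -0.57 and -0.28 in the male and female HCC pairs. The gap between the nodule and the mean of the HCC pairs, 2.93 ± 0.46 (SE), did not pass (adjusted p = 0.114).

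Slc7a11 encodes the cystine transporter subunit xCT. Its signal was 5090.3 in the nodule and 23.8 beside it, 96.3 and 41.3 in the male HCC and beside it, and 40.2 and 374 in the female HCC and beside it. Slc7a11 in young liver read 57.2 and 3.8 in the female and male wild-type pools and 32.4 and 1.5 in the female and male knockout pools. The nodule was the highest array and, among the others, the male HCC and the liver beside the female HCC also stood above the filter level of 91, so the gene failed the filter and was not tested. Its nodule difference was 6.97 log2 units on this probe set and 3.59 on the other one, and both sizes depend on adjacent signals near the added constant.

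The peroxide and thioredoxin genes included Gpx2, a glutathione peroxidase best known from gut epithelium. Gpx2 signal was 3583 in the nodule and 38.6 beside it, 172 and 115 in the male HCC and beside it, and 154 and 255 in the female HCC and beside it. Gpx2 in young liver read 81.4 and 14.5 in the female and male wild-type pools and 33.8 and 9.0 in the female and male knockout pools. The nodule was 14.1-fold above the next array, and all young pools and the nodule's adjacent liver were below the filter level of 91. The nodule difference was 6.02 log2 units, rank 5 of all genes, with 6.26 and 5.65 when 8.4 and 33.6 were added in place of 16.8. The nodule exceeded the mean of the HCC pairs by 6.10 ± 0.74 (SE; adjusted p = 0.0488, and 0.0788 with no filter). Gpx2 was tested only because its nodule signal took it past the filter, so this p is no support for the difference.

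Mgst3, a microsomal glutathione transferase family member with peroxidase activity, read 6642 in the nodule and 1708 beside it, 319 and 644 in the male HCC and beside it, and 1846 and 1925 in the female HCC and beside it. Mgst3 in young liver was 1289 and 742 in the female and male wild-type pools and 1513 and 1016 in the female and male knockout pools. At the ends of the range were the nodule and, lowest, the male HCC. Its nodule difference was 1.95 log2 units on this probe set, while the other Mgst3 probe set, with a mean signal of 70.3, gave -0.25. Txnrd1, cytosolic thioredoxin reductase, read 8387 in the nodule and 4058 beside it, 4449 and 6380.1 in the male HCC and beside it, and 3681 and 3694 in the female HCC and beside it. Txnrd1 in young liver was 3604 and 3218 in the female and male wild-type pools and 3634 and 3175 in the female and male knockout pools. The liver beside the male HCC came second to the nodule, and the nodule difference was 1.04 log2 units.

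Srxn1, sulfiredoxin, which repairs over-oxidised peroxiredoxins, read 3776 in the nodule and 1686 beside it, 2368 and 2111 in the male HCC and beside it, and 1625 and 1052 in the female HCC and beside it. Srxn1 in young liver was 824 and 869 in the female and male wild-type pools and 1014 and 961 in the female and male knockout pools. On this probe set all lesions and adjacent livers were above all young pools, which did not hold on the other Srxn1 probe sets. The nodule was the highest array, 1.16 log2 units above its adjacent liver. On the dimmest Srxn1 probe set the male HCC was highest, at 355 against 172 in the nodule. Txn1, thioredoxin, ranged from 19348 to 30752 over the arrays with its highest value in the nodule, but the nodule difference of 0.62 log2 units was under 2-fold.

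The quinone and carbonyl reductases held the largest nodule difference among the members past the filter. Cbr3, carbonyl reductase 3, read 22685 in the nodule and 309 beside it, 625 and 868 in the male HCC and beside it, and 613 and 1808 in the female HCC and beside it. Cbr3 in young liver was 121 and 67.2 in the female and male wild-type pools and 292 and 530.3 in the female and male knockout pools. The nodule was 12.5-fold above the next array, both HCCs were below their adjacent livers, and both knockout pools were above both wild-type pools (22% of all genes). The nodule difference was 6.12 log2 units, rank 4 among all genes, and exceeded the mean HCC difference by 7.12 ± 0.56 (SE; adjusted p = 0.00778). Its relative Cbr1 ranged from 2981 to 10414 with its highest value in the nodule and a nodule difference of 0.78 log2 units.

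Nqo1, the quinone reductase most often used to read NRF2 activity, gave 5815 in the nodule and 751 beside it, 209 and 282 in the male HCC and beside it, and 703 and 940.4 in the female HCC and beside it. Nqo1 in young liver was 419 and 332 in the female and male wild-type pools and 675 and 493 in the female and male knockout pools. The nodule was 6.18-fold above the next array and both HCCs were below their adjacent livers. Its nodule difference was 2.92 log2 units, and the HCC pairs gave -0.40 and -0.41. The difference between them, 3.33 ± 0.48 (SE), missed the threshold (adjusted p = 0.101).

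Ptgr1, prostaglandin reductase 1, was the member with another order. Its signal was 882 in the nodule and 302 beside it, 795 and 468 in the male HCC and beside it, and 3729.6 and 620.3 in the female HCC and beside it. Ptgr1 in young liver read 305 and 281 in the female and male wild-type pools and 723 and 448 in the female and male knockout pools. Each lesion was above its adjacent liver, and the female HCC, not the nodule, was the highest array. The differences were 0.74 and 2.56 log2 units in the male and female HCC pairs and 1.496 in the nodule pair.

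Ephx1, microsomal epoxide hydrolase, read 44333 in the nodule and 18850.4 beside it, 6868 and 9427 in the male HCC and beside it, and 19726 and 24002 in the female HCC and beside it. Ephx1 in young liver was 17045 and 21299.9 in the female and male wild-type pools and 30811 and 24573 in the female and male knockout pools. The nodule was highest, and the male mouse gave the lowest signals in both of its arrays. Aox1, aldehyde oxidase, read 4547 in the nodule and 1226 beside it, 401 and 511 in the male HCC and beside it, and 2474 and 2563 in the female HCC and beside it. Aox1 in young liver was 3832 and 4897 in the female and male wild-type pools and 2642 and 2984 in the female and male knockout pools. The nodule was above its adjacent liver but below the wild-type male pool, and the male HCC mouse was lowest in both arrays.

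Ces2g, a carboxylesterase, read 2822 in the nodule and 1318 beside it, 1186 and 892 in the male HCC and beside it, and 1493 and 1437 in the female HCC and beside it. Ces2g in young liver was 1067 and 1625 in the female and male wild-type pools and 1103 and 721 in the female and male knockout pools. The nodule was the highest array and the male knockout pool the lowest. The nodule differences were 1.23 for Ephx1, 1.88 for Aox1 and 1.09 for Ces2g, in log2 units. Pir, the iron-binding protein pirin, was highest in the nodule at 2311, lowest in the male HCC at 258, and just under 2-fold up with 0.87 log2 units.

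Of the haem and iron genes, Hmox1, haem oxygenase 1, read 751 in the nodule and 53.7 beside it, 99.0 and 270.2 in the male HCC and beside it, and 545 and 466 in the female HCC and beside it. Hmox1 in young liver was 301 and 564 in the female and male wild-type pools and 198 and 361 in the female and male knockout pools. The nodule was highest, but only 1.33-fold above the wild-type male pool, and the liver beside it was the lowest array. The Hmox1 difference of 3.45 log2 units in the nodule pair spans the full range of the arrays, and it was 3.61 and 3.17 with 8.4 and 33.6 added in place of 16.8. In the HCC pairs Hmox1 differed by -1.31 in the male and 0.22 in the female.

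Blvrb, biliverdin reductase B, read 21518 in the nodule and 8954 beside it, 2211 and 2769 in the male HCC and beside it, and 6257 and 10993 in the female HCC and beside it. Blvrb in young liver was 7086 and 8059 in the female and male wild-type pools and 6194 and 9168 in the female and male knockout pools. Both arrays of the male HCC mouse were lowest, and the nodule was highest. Slc48a1, the haem transporter HRG1, read 3461 in the nodule and 997 beside it, 848 and 927 in the male HCC and beside it, and 1296 and 1441 in the female HCC and beside it. Slc48a1 in young liver was 1084 and 965 in the female and male wild-type pools and 1112 and 1342 in the female and male knockout pools. The nodule was 2.40-fold above the next array and the rest lay between 848 and 1441. The nodule differences were 1.26 log2 units for Blvrb and 1.78 for Slc48a1. Fth1, ferritin heavy chain, ranged from 46449.9 to 67459 with its highest value in the male HCC, and its nodule difference was 0.21.

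In conjugation and export, Abcc4, the efflux transporter MRP4 of the basolateral hepatocyte membrane, read 21089 in the nodule and 456 beside it, 406 and 377 in the male HCC and beside it, and 251 and 912 in the female HCC and beside it. Abcc4 in young liver was 218 and 185 in the female and male wild-type pools and 273 and 144 in the female and male knockout pools. The nodule was 23.1-fold above the next array, and the female HCC was below its adjacent liver. The nodule difference was 5.48 log2 units, rank 6 among all genes, and exceeded the mean of the HCC pairs by 6.32 ± 0.73 (SE; adjusted p = 0.0448).

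Abcc3, the basolateral transporter MRP3, read 12615 in the nodule and 3207 beside it, 4084 and 5089 in the male HCC and beside it, and 6156 and 9423 in the female HCC and beside it. Abcc3 in young liver was 12981 and 9101 in the female and male wild-type pools and 9285 and 8877 in the female and male knockout pools. Here the nodule was within the young range and its adjacent liver was the lowest array, with a difference of 1.97 log2 units. Abcc2, the canalicular transporter MRP2, read 12957 in the nodule and 5750.4 beside it, 4916 and 3031 in the male HCC and beside it, and 6658 and 5933 in the female HCC and beside it. Abcc2 in young liver was 5645 and 5506 in the female and male wild-type pools and 4875 and 4179 in the female and male knockout pools. Highest again was the nodule, and all 3 lesions were above their adjacent livers, by 1.17 log2 units in the nodule.

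Ugdh, UDP-glucose dehydrogenase, which makes the glucuronic acid donor, read 31178 in the nodule and 15548 beside it, 3126 and 5115 in the male HCC and beside it, and 7685 and 10814 in the female HCC and beside it. Ugdh in young liver was 5498 and 7639 in the female and male wild-type pools and 11498 and 9026 in the female and male knockout pools. The nodule was highest, its own adjacent liver next and the male HCC lowest, and the nodule difference of 1.003 log2 units lay at the 2-fold mark. Entpd5, a nucleotide phosphatase of the endoplasmic reticulum, was just under that mark with 0.96 and was highest in the nodule at 12461. Osgin1, an oxidative stress-induced growth inhibitor, was highest in the nodule at 8196 but only 0.44 log2 units above its adjacent liver.

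Other probe sets of the same genes gave the same direction in the nodule pair: all 18 of the further member probe sets with a mean signal above the filter level moved as the chosen one did. Of the 10 that belong to members at least 2-fold higher, 9 were themselves at least 2-fold higher. Centring each array on its 75th percentile shifted the median of all genes in the nodule pair from 0.02 to -0.10, left 16 members at 2-fold or more, and changed the share of higher genes among all 2-fold differences from 67% to 54.3%. The 4 members lost were Ces2g, Gclm, Txnrd1 and Ugdh.

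Cell type markers also differed between the nodule and its adjacent liver. Of 10 Kupffer cell and macrophage markers 9 were higher in the nodule, with a median of 0.89 log2 units and a summed signal of 29312 against 13874 (2.11-fold), while the HCC pairs gave 1.17-fold and 0.948-fold and the young pools summed to 15297 to 27630. Clec4f, which marks Kupffer cells, read 1425 in the nodule and 1168 beside it. The 9 hepatocyte markers past the filter were all lower, with a median of -0.39 and a summed signal 0.751-fold that of adjacent liver. The sum of 7 cholangiocyte markers was 2768 against 2015 in the nodule pair (1.37-fold), and 4.50-fold and 2.71-fold that of adjacent liver in the male and female HCC. Most of it came from Prom1, at 1664 in the nodule and 1155 beside it, and Tspan8, at 406 and 49.6. Krt7, Krt19 and Epcam, which define these cells, read 77.4, 149 and 126 in the nodule and 149, 96.1 and 185 beside it. The sum of 7 neutrophil markers was 15530 and 15435 in the male HCC and beside it and at most 1710 on the other arrays. Of 8 stellate and fibroblast markers 6 were higher, led by Col1a1 with 4.42, and 7 of 7 endothelial markers past the filter were higher, with summed signals of 1.23-fold and 1.42-fold. The 18S control signal was lower in each lesion, at 19.5 to 21.5, than in each adjacent liver, at 57.3 to 79.9. The part of these differences in the member values was not tested.

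In the HCC pairs most members lay below adjacent liver: the mean difference was below 0 for 22 of the 28 and above 0 for 6, where 49.3% of all genes were above 0. Over the 2 pairs none of the 28 members passed limma's test, where 12 of 11021 genes did (0.109%; 0.0907% upward and 0.0181% downward); at an unadjusted p below 0.05 there were 3 members (Cbr3, Entpd5 and Ptgr1) and 7.67% of all genes. The median member difference was -0.23 log2 units beside -0.01 over all genes. Both HCCs were below their adjacent livers for 15 members (27.7% of all genes) and above for 6 (25.5%), which were Abcc2, Ces2g, Fth1, Gclc, Ptgr1 and Srxn1. Some of these signs turned on other probe sets of the gene. In the male and female pair Slc48a1 then gave 0.64 and 0.07, and Txnrd1 0.04 and 0.15. Other Srxn1 probe sets gave -0.34 and -0.47 in the male pair, and Fth1 gave -0.11 in the female pair. The further probe sets of Gclc, Gclm and Gsr kept both signs. All of the 15 were above 0 in the nodule pair, a combination shown by 11.3% of all genes. Ptgr1 gave the highest value, 1.65 ± 0.41 (SE; n = 2 pairs), which did not pass with limma (adjusted p = 0.241). Cbr3 gave the lowest, -0.999 ± 0.33 (adjusted p = 0.450). By pair, 9 members were above 0 in the male (46.3% of all genes) and 10 in the female (51.4%). No member was 2-fold higher in the male HCC and Hmox1 was 2-fold lower, beside 4.54% and 4.58% of all genes. In the female HCC only Ptgr1 was 2-fold higher and Abcc4 and Cbr3 were 2-fold lower, beside 6.31% and 4.11%. The pairs differed in sign for the other 7, among them Abcc4 and Hmox1.

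**Figure D2:**
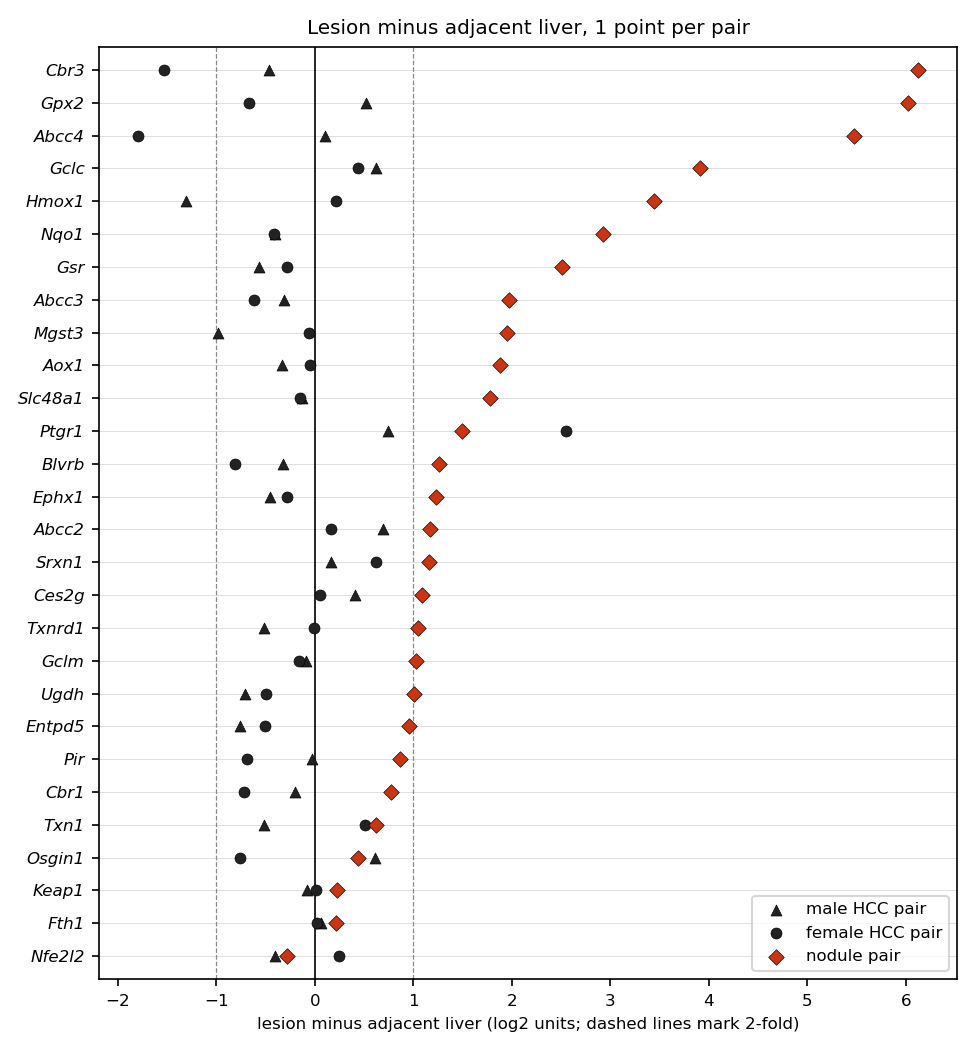
Lesion minus adjacent liver in log2 units for the 28 members past the filter, 1 point for the nodule pair (red diamond), the male HCC pair (triangle) and the female HCC pair (circle), ordered by the nodule value. The nodule point lies above 0 for 27 members, and the mean of the 2 HCC points lies below 0 for 22. In the female HCC pair Ptgr1 is at 2.56 and Abcc4 at -1.79.

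Whether the nodule pair differed from the HCC pairs was tested directly, as the nodule difference less the mean of the 2 HCC differences. The single nodule pair is assumed to vary as the HCC pairs do, with 1 residual degree of freedom. Of 11021 genes 5 passed, all with the nodule higher (0.0454%), and 3 of them were members: Cbr3, Abcc4 and Gpx2. Without Gpx2, which passed the filter only through the nodule array, the members called were 2. All 3 calls were lost with no intensity trend (adjusted p of 0.212 to 0.407) and with a model over all 10 arrays (0.104 to 0.376). At an unadjusted p below 0.05 there were 551 genes, or 5%. The other called genes were Slc22a12 and Heph. The median over the 28 members was 1.60 log2 units beside 0.06 over all genes, and 26 members were above 0 (54% of all genes), Ptgr1 and Nfe2l2 being the exceptions at -0.15 ± 0.72 and -0.20 ± 0.48 (SE).

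Beyond the members already given, Hmox1 (3.99 ± 0.76, adjusted p = 0.214), Mgst3 (2.47 ± 0.53, 0.361), Abcc3 (2.43 ± 0.45, 0.203) and Aox1 (2.07 ± 0.47, 0.389) were at least 4-fold apart and did not pass. The other members lay between -0.20 and 1.92 with adjusted p of 0.405 or more. With 1 HCC pair left out, the model also took in the young pools, and each lesion and adjacent group held 1 array. The spread then came from the young pools alone, so only estimates are given. The estimates stayed between 6.59 and 7.66 for Cbr3, 5.38 and 7.27 for Abcc4 and 5.50 and 6.69 for Gpx2.

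**Figure D3:**
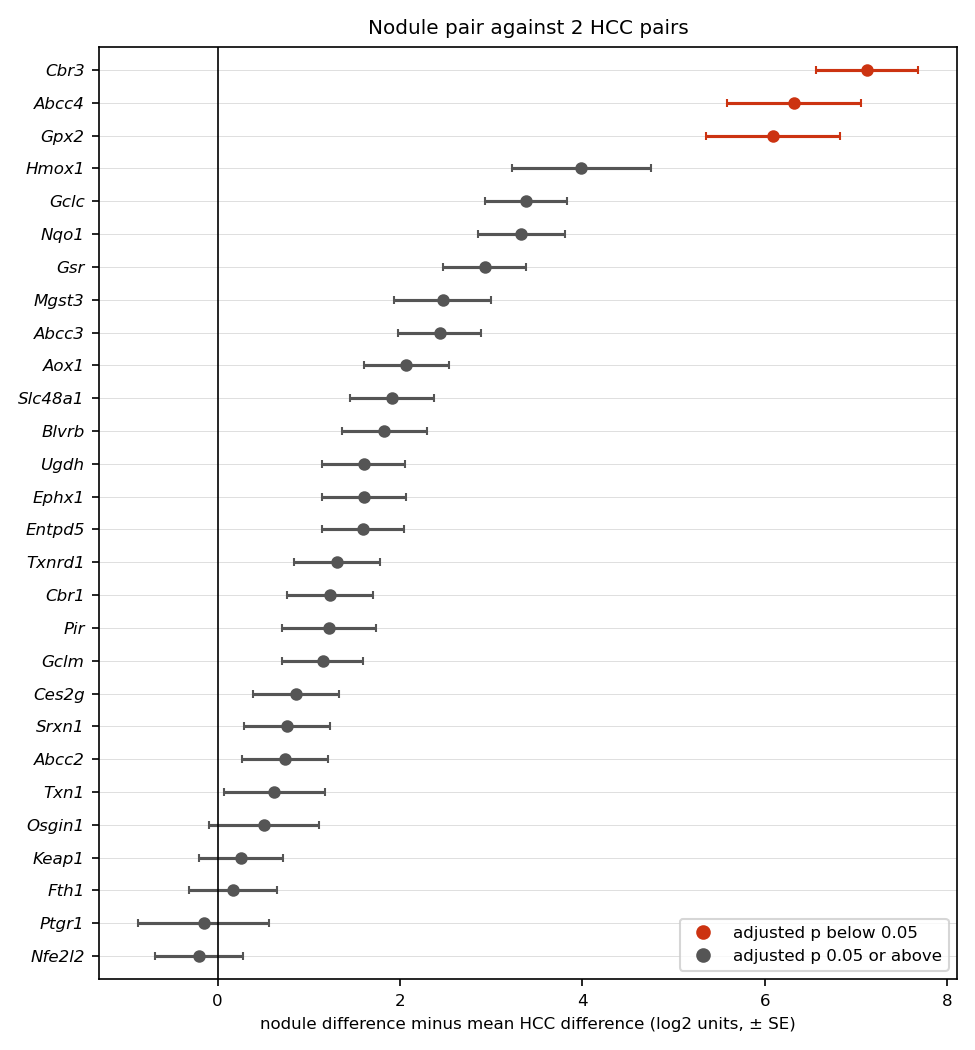
Nodule difference minus the mean HCC difference in log2 units for the 28 members, with SE bars from the fit; red marks an adjusted p below 0.05. Cbr3, Abcc4 and Gpx2 are red at 7.12, 6.32 and 6.10, and Nfe2l2 and Ptgr1 are the only members below 0.

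Taking all 3 lesions against adjacent liver, no member passed and 1 gene of 11021, Cpe, did (0.00907%), with 9.99% of genes at an unadjusted p below 0.05. Members were above 0 in 24 of 28 cases (50.6% of all genes). The highest member estimates were Gpx2 with 1.96 ± 1.17 log2 units (SE), Gclc with 1.66 ± 0.65 and Ptgr1 with 1.60 ± 0.34 (adjusted p = 0.629, 0.471 and 0.270; n = 3 pairs, limma). Without the male HCC pair 165 genes passed, and Ptgr1 was among them (2.03, adjusted p = 0.0160). Without the nodule pair this fit is the HCC comparison given above, with 6 of the 28 members above 0 (49.3% of all genes). Members that turned from above to below 0 included Cbr3, Abcc4, Gpx2, Gsr, Hmox1, Nqo1, Abcc3 and Aox1. The share of all genes that turned was not counted.

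Before any lesion, at 11 weeks, knockout liver differed from wild-type liver in 1 member by the test. Gclc fell by 1.37 ± 0.20 log2 units (SE; 2 pools a genotype, limma with a sex term, adjusted p = 0.0327), by 1.35 in females and 1.39 in males. Both of its knockout pools were below both wild-type pools, as was so for 26.1% of all genes. In all, 194 of 11021 genes passed (1.76%), 0.862% upward and 0.898% downward, and the unadjusted p was below 0.05 for 19.6%. The Gclc call was lost with no intensity trend (adjusted p = 0.207), with all 10 arrays in the model (0.192) and with its probe sets averaged (-1.26, 0.0583). With 1 pool left out, the model also took in the aged arrays and 1 genotype held 1 array, so only estimates are given. These lay between -1.44 and -1.30. The nodule's adjacent liver, at 2214, was below both knockout pools and both wild-type pools.

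Markers of other liver cells differed with genotype. All 7 endothelial markers past the filter were lower in knockout pools, with a median of -1.12 log2 units, and Stab2, Oit3 and Ptprb passed (adjusted p = 0.0374, 0.0461 and 0.0484). Their summed signal, over 8 markers, was 5674 and 6131 in the knockout pools and 11800 and 15421 in the wild-type pools. All 10 Kupffer cell and macrophage markers were lower, with a median of -0.56 and none called, and sums of 15297 and 15977 against 18472 and 27630. The erythroid gene Alas2, the 1 marker of its list past the filter, fell by 1.48 (adjusted p = 0.0369). The 9 hepatocyte markers had a median of -0.14. The part of these differences in the member values was not tested.

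Several members were higher in knockout pools without passing. Cbr3 differed by 1.94 ± 0.43 log2 units (adjusted p = 0.0793), Nfe2l2 by 1.05 ± 0.21 (0.0625), Ptgr1 by 0.92 ± 0.27 (0.137) and Cbr1 by 0.83 ± 0.20 (0.0978). Both knockout pools were above both wild-type pools for 11 members, where 22% of all genes showed this, and below for 4, Abcc2, Aox1, Gclc and Gclm, where 26.1% did. Of the 28 members 13 were above 0 (45.7% of all genes). Nqo1 (0.61 ± 0.24, adjusted p = 0.230), Ugdh (0.65 ± 0.24, 0.210) and Ephx1 (0.53 ± 0.21, 0.225) were higher in both sexes, and Aox1 (-0.62 ± 0.21, 0.179) was lower in both. Centring on the 75th percentile moved the median of all genes from -0.05 to 0.10 and the share of higher genes among those called from 49% to 70.7%, and Nfe2l2 then passed (1.20, adjusted p = 0.0348). Nfe2l2 also passed without _x_at and _s_at probe sets (adjusted p = 0.0491). It did not pass with averaged probe sets (0.240), no trend (0.215) or all 10 arrays (0.292). The other Nfe2l2 probe set, with a mean signal of 132, differed by -0.37 in females and 2.05 in males. Under quantile normalization 4 members passed, Cbr3, Gclc, Nfe2l2 and Ptgr1, where 631 of 11021 genes did.

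**Figure D4:**
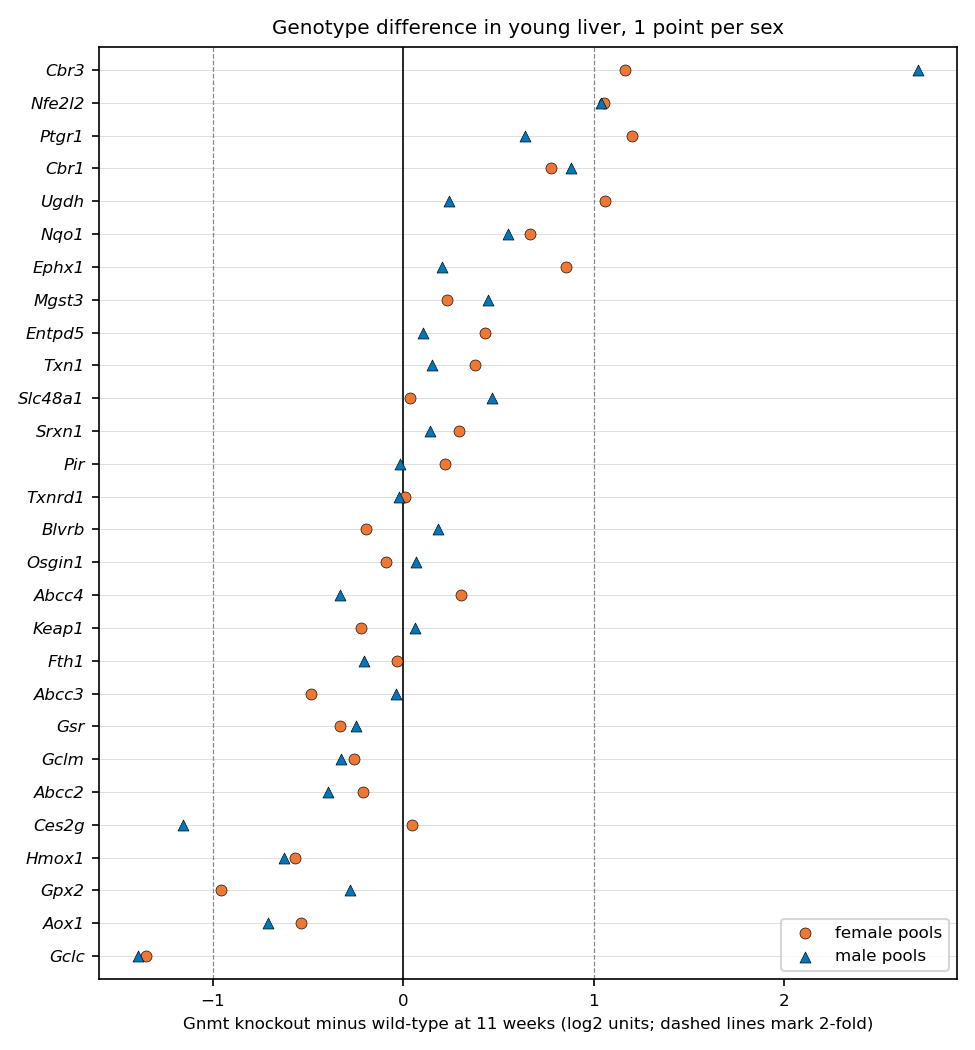
Gnmt knockout minus wild-type at 11 weeks in log2 units for the 28 members past the filter, 1 point per sex (female pools as circles, male pools as triangles), ordered by their sum. Cbr3 is highest with 1.17 in females and 2.70 in males, and Gclc lowest with -1.35 and -1.39; dashed lines mark 2-fold.

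Females and males at 11 weeks differed in no member by limma's test, where 31 genes passed (0.281%; 0.172% higher and 0.109% lower in females) and the unadjusted p was below 0.05 for 9.19%. The members with the lowest unadjusted p were Gclc, 0.65 ± 0.20 log2 units higher in females (adjusted p = 0.391), Hmox1, at -0.84 ± 0.26 (0.414), and Mgst3, 0.68 ± 0.23 higher (0.452). The nodule and its adjacent liver are both from a female, and so is the second HCC pair. In that HCC pair 10 of the 28 members were above adjacent liver (51.4% of all genes), among them Gclc, Hmox1, Srxn1 and Ptgr1. Cbr3, Abcc4, Nqo1 and Gsr were among those below it. The part of sex in the nodule values was not tested. Adjacent aged liver differed from young knockout liver in no gene by limma's test (0 of 11021, 0%; 12.4% at an unadjusted p below 0.05), but in 366 genes without the female knockout pool and in 153 without the liver beside the nodule. The largest member values there were Gpx2 with 1.74 ± 0.84, Aox1 with -1.40 ± 0.50, Abcc4 with 1.24 ± 0.36 and Cbr3 with 1.05 ± 0.68 log2 units, adjusted p of 0.388 to 0.532. Without the female knockout pool, when the sex term rests on the adjacent livers, 2 members passed, Blvrb and Pir at -1.72 and -1.98 (adjusted p = 0.0333 and 0.0414). For 19 members the liver beside the nodule was within or below the range of the young pools (78.9% of all genes).

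Other genes tied to the pathway were also described. A list of 40 held NRF2 partners and degradation factors, enzymes that supply NADPH, the glutathione transferases and further xenobiotic enzymes, and 34 passed the filter. Of these 8 were at least 2-fold higher in the nodule pair (7.84% of all genes) and none 2-fold lower (3.87%), with a median of 0.45 log2 units beside 0.02 over all genes. They were Gsta4 with 2.39, Tkt with 2.01, Gsta2 with 1.88, Ugt2b35 with 1.81, Gstm4, Gstm2, Gstm3 and Pgd. In HCC none of the 34 passed; the largest values were Gsta2 with -1.93, Cyp2b10 with -1.25, Maff with 1.17 and Gsta3 with -1.01. In the test of the nodule against HCC none passed, Gsta2 being highest with 3.80 (adjusted p = 0.160). In young knockout pools Pgd, which makes NADPH in the pentose phosphate pathway, rose by 2.08 ± 0.25 (adjusted p = 0.0169), and Cyp2b10, a cytochrome best known as a target of the receptor CAR, fell by 1.92 ± 0.33 (0.0453; 0.0602 with the filter on mean signal). With 1 pool left out Pgd gave 1.70 to 2.46 and Cyp2b10 -3.78 to -0.05 with 1 sex term for all arrays. With a separate sex term for the young arrays they gave 1.72 to 2.43 and -2.55 to -1.29. Both calls were lost with averaged probe sets (Pgd 0.0554, Cyp2b10 0.108), no trend (0.207 and 0.211) and all 10 arrays (0.217 and 0.568). The Cyp2b10 call was also lost with no filter (0.0560). Pgd was 1.20 without _x_at and _s_at probe sets (adjusted p = 0.0491). Gstm3 with 2.12 ± 0.42 did not pass (0.0625).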

How the data were processed

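Liver RNA was measured on 10 Affymetrix arrays, from 5 µg of total RNA each, per the labels. Each probe set has 1 deposited value per array, a linear intensity that the authors made with GCOS per the submitters' processing notes, its version and settings not given in the sources used here. The trimmed mean of each deposited array, 2% left out at each end, was 500. Of 45101 probe sets, 34945 named 1 gene (34741 matched by gene identifier to the mouse gene table), 932 named several and 9224 were controls or had no listed symbol. No detection calls were used.

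The analysis used log2 of signal plus 16.8, a constant at the 20th percentile of the table. The probe set of highest mean stood for each gene, which was kept where its mean log2 value was above that of a signal of 91, the median of all values. The same filter on the mean signal before log2, which lets genes in through 1 high array, was run as an alternative. limma 3.58.1 in R 4.3.3 was used, with an intensity trend and Benjamini-Hochberg adjustment over 11021 genes, and calls are adjusted p below 0.05. The terms were sex (11 weeks and adjacent liver) or mouse (lesion pairs, inferred from equal sex and age). The fits left 1 or 2 residual degrees of freedom, so the variance prior over all genes carries most of each call. The procedure was tested on simulated data, where the test of the nodule against HCC had little power. Signals in every array are given for members called in a comparison or at least 2-fold different in the nodule pair; the others are given by range. From the list of other pathway genes, those called and up to 4 with the largest difference per comparison are named; Slc22a12, Heph and Cpe were named after their values were seen. Members, lists and markers were chosen with earlier results of these data known. Alternatives were other added constants, quantile and 75th percentile scaling, no filter, other probe set choices, no trend, no replicate block, a model over all 10 arrays and arrays or pairs left out; a pool left out leaves no residual degrees of freedom, so those fits used all remaining arrays, with 1 sex term or with one for young and one for aged arrays. Marker lists for neutrophils, B and plasma, T and NK, and erythroid cells gave summed signals of 0.952, 0.506, 1.21 and 0.572 times adjacent liver in the nodule pair. No T and NK marker passed the filter, and most erythroid and some neutrophil markers did not. The T and NK ratio rests on low signals, with sums of 476 in the nodule and 395 beside it.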

Additional observations from a re-analysis of the deposited data

Results flagged for a closer look

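For Cbr3, Abcc4 and Gpx2 the lesion-minus-adjacent difference of the nodule pair departed from that of the HCC pairs by a test of the difference itself. The estimates were 7.12 log2 units for Cbr3, 6.32 for Abcc4 and 6.10 for Gpx2, from 1 nodule pair and 2 HCC pairs. The test has 1 residual degree of freedom. Gpx2 entered it only through its nodule signal, so its p is no support. All 3 calls were lost with no intensity trend and with a model over all 10 arrays. No explanation was tested.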

How the results depend on the processing

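Over 102 single-gene results (differences of at least 0.5 log2 units or called in some alternative) and 1360 alternatives, 1259 kept direction and side of the threshold, 61 fell below it, 13 rose past it and 27 turned direction. Most of the 102 were not past the threshold at first, so keeping a side mostly means staying below it. Of the 61 losses, 35 were in knockout against wild-type and 21 in nodule against HCC, where few results were called. Some alternatives, such as a sex term in place of the replicate block for the HCC pairs, could not change a result. Except where given, the cause was not tested. In the nodule pair the count of members at 2-fold or more was 16 to 21. In HCC against adjacent liver 0 members were called in every alternative run.

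For the nodule against HCC the 3 members called became 1 under 75th percentile centring, with 8.4 added, or with quantile normalization, and 0 with no intensity trend, a model over all 10 arrays, or no replicate block and no sex term. It was 2 with no filter (Gpx2 lost) and 4 with averaged probe sets or without _x_at and _s_at probe sets (Gclc added). With an HCC pair left out the spread came from the young pools alone, so no count is given. With a sex term in place of the replicate block the members called stayed 3, since sex and mouse coincide in the HCC pairs. The block changed no other count of members called. The versions with all arrays, with no sex term or with a separate sex term for the young arrays were chosen after seeing the data. Osgin1, at 0.51, ranged from -0.18 (without the female HCC pair) to 1.20.

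For knockout against wild-type the 1 member called became 2 with 75th percentile centring or without _x_at and _s_at probe sets and 4 with quantile normalization. It became 0 with averaged probe sets, all 10 arrays or no intensity trend. The 194 genes called became 317 with centring, 631 with quantile normalization, 38 with averaged probe sets, 88 with the filter on mean signal, and 1 with no trend or all 10 arrays. With a pool left out, in a model whose 1 sex term is shared by young and aged arrays and so takes in the aged male mouse, Aox1 ranged from -1.58 to 0.34, Ces2g from -1.12 to 0.014 (-1.15 to 0.047 with a separate sex term), Hmox1 from -1.40 to 0.21, Ephx1 from -0.16 to 1.22 and Ugdh from -0.039 to 1.34. With a separate sex term for the young arrays the other 4 kept their direction, at -0.71 to -0.53 for Aox1, -0.62 to -0.57 for Hmox1, 0.21 to 0.85 for Ephx1 and 0.24 to 1.06 for Ugdh, so these turns come from the shared sex term.

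For females against males Hmox1 turned from -0.84 to 0.34 with all 10 arrays, and to between 0.72 and 0.74 with a pool left out, but gave -0.87 to -0.81 with a separate sex term. In HCC, by pair left out, Abcc4 ranged from -1.79 to 0.10 and Hmox1 from -1.31 to 0.22. Over all lesions, for the 7 turned members at 0.5 log2 units or more, the range by pair left out, with its lower end without the nodule pair, was -0.85 to 2.79 for Abcc4, -0.999 to 2.83 for Cbr3, -0.074 to 3.27 for Gpx2, -0.42 to 1.11 for Gsr, -0.54 to 1.83 for Hmox1, -0.41 to 1.26 for Nqo1 and -0.14 to 0.83 for Slc48a1, and members called were 0 to 1. In adjacent aged against young knockout liver Srxn1 turned to -0.024 with averaged probe sets, Blvrb ranged from -1.72 to 0.68 with an array left out, members called were 0 to 2, and centring moved the median of all genes from 0.08 to -0.10. Gene counts in the other comparisons also moved: females against males from 31 to between 3 (no trend) and 98 (quantile), HCC from 12 to between 0 (no trend, all 10 arrays, or no replicate block and no sex term) and 27 (without _x_at and _s_at probe sets), nodule against HCC from 5 to between 0 and 7, all lesions from 1 to 165 without the male HCC pair, and adjacent against young from 0 to 366 without the female knockout pool and 153 without the liver beside the nodule. The filter on mean signal, chosen after seeing the data, took in Slc7a11 and left the members called at 3 for nodule against HCC and 1 for genotype. Signals near or below the added constant, as for Gpx2 and Slc7a11 in young liver, limit the size of a log2 difference.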
